A study of Arabidopsis thaliana with 12 samples.

Results

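A set of 70 Arabidopsis thaliana transcripts was far lower in abi3-6 seeds than in wild-type seeds at both ages sampled, and these 70 transcripts are described here. A probe set is the group of array probes that measures 1 transcript. Members were chosen on the mean deposited value of each group, read on a log2 scale, among the 13513 probe sets that the annotation used here pairs with a single gene. The rule asked for a difference, abi3-6 minus wild type, of at most -3 at 12 days after flowering (DAF) and at most -3 at 16 DAF, and for both wild-type means to be over 5. Of the 4669 single-gene probe sets with both wild-type means over 5, 79 met both thresholds, and 9 of them were left out by name: AT2G25890, BGLU19, LEA18, AtLEA4-1, AT3G15670, AT3G53040, AT1G72100, AT3G22490 and AT4G36600. A further 48 probe sets met the same thresholds without being paired with a single gene, 47 of them with no gene in the table used, and they are not described.

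The seeds were of the Col-0 wild type or of plants that carried 2 copies of abi3-6, a severe loss-of-function allele of ABI3, and were dissected out of siliques at 12 or 16 DAF. The 4 groups were wild type at 12 DAF, abi3-6 at 12 DAF, wild type at 16 DAF and abi3-6 at 16 DAF, and each held 3 arrays from separate batches of plants. Sample titles of wild type at 12 DAF are numbered in another form than those of the other groups, and what this marks is not stated. Any difference tied to it cannot be told apart from genotype at 12 DAF or from age in wild type. No treatment was named in the labels. Whole seeds hold embryo, endosperm and seed coat, so fewer cells of a type and less RNA per cell cannot be told apart in these values.

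ABI3 encodes a transcription factor with a B3 DNA-binding domain that acts during seed maturation, the phase in which the embryo fills with storage protein and oil, acquires desiccation tolerance and enters dormancy. The B3 domain contacts the RY element in promoters of maturation genes, and ABI3 also works with bZIP factors of abscisic acid signalling. Seeds of severe abi3 mutants are known to stay green, to tolerate drying poorly and to be insensitive to abscisic acid in germination. Of the 70 members, 7 have a symbol of their own in the gene table: M17, LEA, MSRB6, SWEET6, UGT72E1, STZ and IAA34. Roles of the loci without a symbol are family roles from general knowledge of the Arabidopsis annotation, and 26 members are given no role. The gene table marks 2 members, AT3G31955 and AT5G50315, as pseudogenes.

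Within a group, pairs of arrays had a Pearson r of 0.983 to 0.994, and 13507 to 13931 probe sets per array exceeded 3.16 log2 units, the limit below which a signal is called dim here. With 3 arrays a group, precision is limited by their number. ABI3 had no probe set of its own, and its transcript was not analysed here. PAP85, a vicilin-type seed storage protein gene, averaged 14.58 in wild type and 14.79 in abi3-6 at 12 DAF and 14.70 and 13.84 at 16 DAF. This 1 transcript of maturing seeds was thus bright in every group. It is 1 of 10 storage and oil body genes read below, of which 8 were lower in abi3-6 at 12 DAF and 9 at 16 DAF. PAP85 had the smallest fall of those 9 (-0.865 ± 0.155, SE, limma adjusted p = 0.000203). Of 12 endosperm markers only AGL62 and IKU2 had a probe set of their own, and both were under the dim limit on all 12 arrays. None of the 6 embryo markers had one. For 3 of 11 seed coat markers, the log2 of their summed level was 9.85 to 10.08 in wild type and 10.28 to 10.70 in abi3-6 at 12 DAF, and 9.63 to 9.96 and 11.11 to 11.39 at 16 DAF. ARA12 carried this sum, while PRX36 (AT3G50990) was under the dim limit on all arrays and BAN was under it on every 16 DAF array. For 2 of 7 silique wall markers (ALC and SPT) the summed level was 7.72 to 8.28 and 7.63 to 8.11 at 12 DAF, and 4.28 to 4.53 in wild type against 6.56 to 6.95 in abi3-6 at 16 DAF. The actin control, read from 3′ and 5′ probe sets, gave a 3′ minus 5′ difference of -0.37 ± 0.17 (SD, n = 3) in wild type and 0.37 ± 0.09 in abi3-6 at 12 DAF, and -0.21 ± 0.015 and 0.37 ± 0.03 at 16 DAF. The same difference at 12 DAF, wild type first, was 0.068 and 0.067 for GAPDH and -0.094 and -0.171 for ubiquitin. At 16 DAF it was -0.074 ± 0.413 and 0.183 ± 0.119 for GAPDH and 0.04 ± 0.018 and 0.184 ± 0.088 for ubiquitin. Arrays of the genotypes overlapped at both ages for GAPDH and at 12 DAF for ubiquitin. The seed coat sum and the actin difference thus moved with genotype at both ages, and the silique wall sum at 16 DAF. Their part in the genotype differences below was not tested.

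Across the 70 members the median of the group means was 9.58 in wild type and 4.19 in abi3-6 at 12 DAF, and 10.72 and 3.51 at 16 DAF. Over all 14873 probe sets kept for testing the corresponding medians were 6.22, 6.29, 6.13 and 6.28. The difference between genotypes ranged from -10.76 to -3.04 at 12 DAF, with a median of -4.53, and from -11.39 to -3.06 at 16 DAF, with a median of -5.97. It was -6 or lower for 17 members at 12 DAF and for 33 at 16 DAF, and it was larger at 16 DAF than at 12 DAF for 56 of the 70. Centring each array on its median would add -0.12 to every difference at 12 DAF and -0.36 at 16 DAF. These differences chose the members, so they are given as a description with no test. For the same reason nothing is read from the observation that all 70 had 3 mutant arrays below 3 wild-type arrays at each age; among all tested probe sets this was so for 31.2% at 12 DAF and 38.1% at 16 DAF. Differences of at most -3 were found for 1.8% of the 4669 single-gene probe sets with bright wild-type means at 12 DAF, for 3.75% at 16 DAF and for 1.69% at both.

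**Figure D1:**
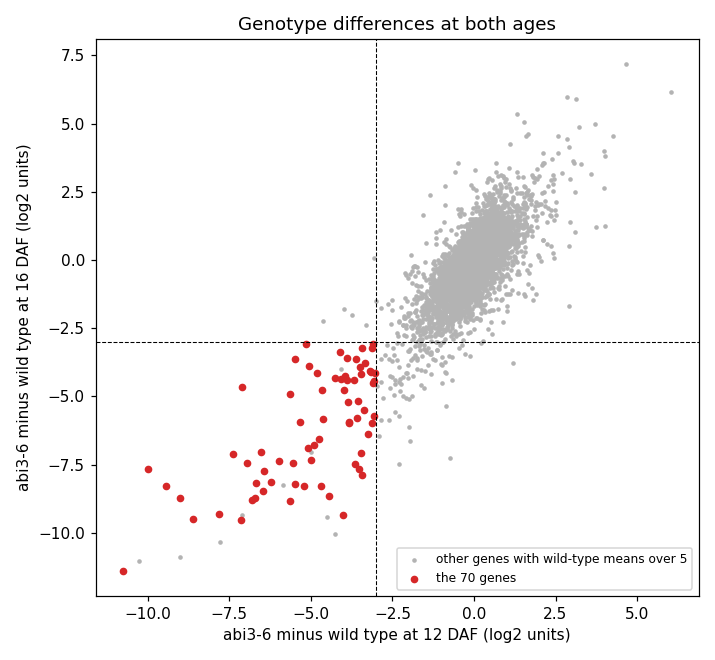
Each point is a single-gene probe set with both wild-type means over 5; the horizontal axis gives abi3-6 minus wild type at 12 DAF and the vertical axis the same difference at 16 DAF, both in log2 units, with dashed lines at the thresholds of -3. The 70 members (red) fill the lower left corner down to -10.76 and -11.39 for AT5G45690; grey points in that corner are the 9 genes left out by name.

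How much signal remained in the mutant differed from member to member. All 70 were over the dim limit on all 6 wild-type arrays. In abi3-6, 20 were dim on all 3 arrays at 12 DAF and 22 at 16 DAF, 13 were dim on all 6 mutant arrays, and 30 were over the limit on all 6. For a member dim on all 3 mutant arrays of an age the difference is a bound, given below as at least a number of times lower against the dim limit. A further 9 members at 12 DAF and 13 at 16 DAF had only 1 or 2 mutant arrays over the limit. Their folds and differences are given as measured, include dim arrays and are less certain. AT5G18450 at 12 DAF and AT4G18650, AT2G42560 and AT3G21380 at 16 DAF are among these. Mutant means over 8 were kept by 8 members at 12 DAF and 6 at 16 DAF. Among these were LEA, AT5G01670, AT2G15010, AT5G01300 and AT5G44310, whose mutant means at 12 DAF were 10.24, 10.03, 9.66, 9.52 and 8.48. These transcripts were lower by the rule yet still bright in the mutant.

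The largest difference at each age was that of AT5G45690, a gene of the DUF1264 family, which also holds oil body-associated proteins. Its values were 13.52, 13.65 and 13.60 in wild type and 2.86, 3.02 and 2.6 in abi3-6 at 12 DAF, and 13.61, 13.71 and 13.83 against 2.44, 2.27 and 2.27 at 16 DAF. All 6 wild-type arrays lay between 13.52 and 13.83, and all 6 mutant arrays were under the dim limit. The transcript was at least 1377-fold lower at 12 DAF and at least 1504-fold lower at 16 DAF.

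AT3G60730 belongs to the pectin methylesterase family, enzymes that remove methyl groups from cell wall pectin. It was measured at 12.50, 12.47 and 12.34 in wild type and 3.02, 2.22 and 2.12 in abi3-6 at 12 DAF, and at 9.81, 10.13 and 9.43 against 2.43, 2.29 and 1.63 at 16 DAF. The mutant arrays were dim throughout, and the wild-type arrays were high at 12 DAF and intermediate at 16 DAF, so the bound shrank from at least 619.2-fold to at least 98.9-fold lower. AT3G56350, an iron/manganese superoxide dismutase family gene of superoxide removal, read 13.79, 13.84 and 13.78 against 4.04, 4.77 and 4.28 at 12 DAF and 13.81, 13.95 and 13.94 against 5.52, 6.48 and 4.84 at 16 DAF. Here the mutant arrays stayed over the dim limit and spread more at 16 DAF than at 12 DAF, and the difference was -9.44 at 12 DAF and -8.29 at 16 DAF.

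AT3G58450 belongs to the universal stress protein family. Its wild-type arrays gave 11.83, 11.84 and 11.57 at 12 DAF and 13.65, 13.75 and 13.59 at 16 DAF, and its mutant arrays 3.14, 3.14 and 3.13 at 12 DAF and then 3.91, 4.54 and 4.03 at 16 DAF. The mutant was just under the dim limit on every 12 DAF array and over it on every 16 DAF array; the transcript was at least 384.2-fold lower at 12 DAF and 727.1-fold lower at 16 DAF. AT5G07330, which is given no role, read 12.98, 12.89 and 12.84 against 3.69, 3.92 and 4.07 at 12 DAF and 14.12, 13.90 and 13.89 against 5.42, 4.93 and 5.33 at 16 DAF. Both genotypes were higher at 16 DAF, and the difference was nearly equal at the ages, -9.01 and -8.74.

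AT2G19320, also without a role, measured 12.08, 12.02 and 12.02 in wild type and 4.52, 4.12 and 3.98 in the mutant at 12 DAF, and 12.49, 12.40 and 12.28 against 3.49, 2.87 and 2.87 at 16 DAF. The wild type was bright at both ages, and 2 of the 3 mutant arrays at 16 DAF were dim. These 6 genes had the largest falls of the measured means averaged over the ages; mutant means under the dim limit enter that order as measured, and it can differ where only bounds are compared.

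**Figure D2:**
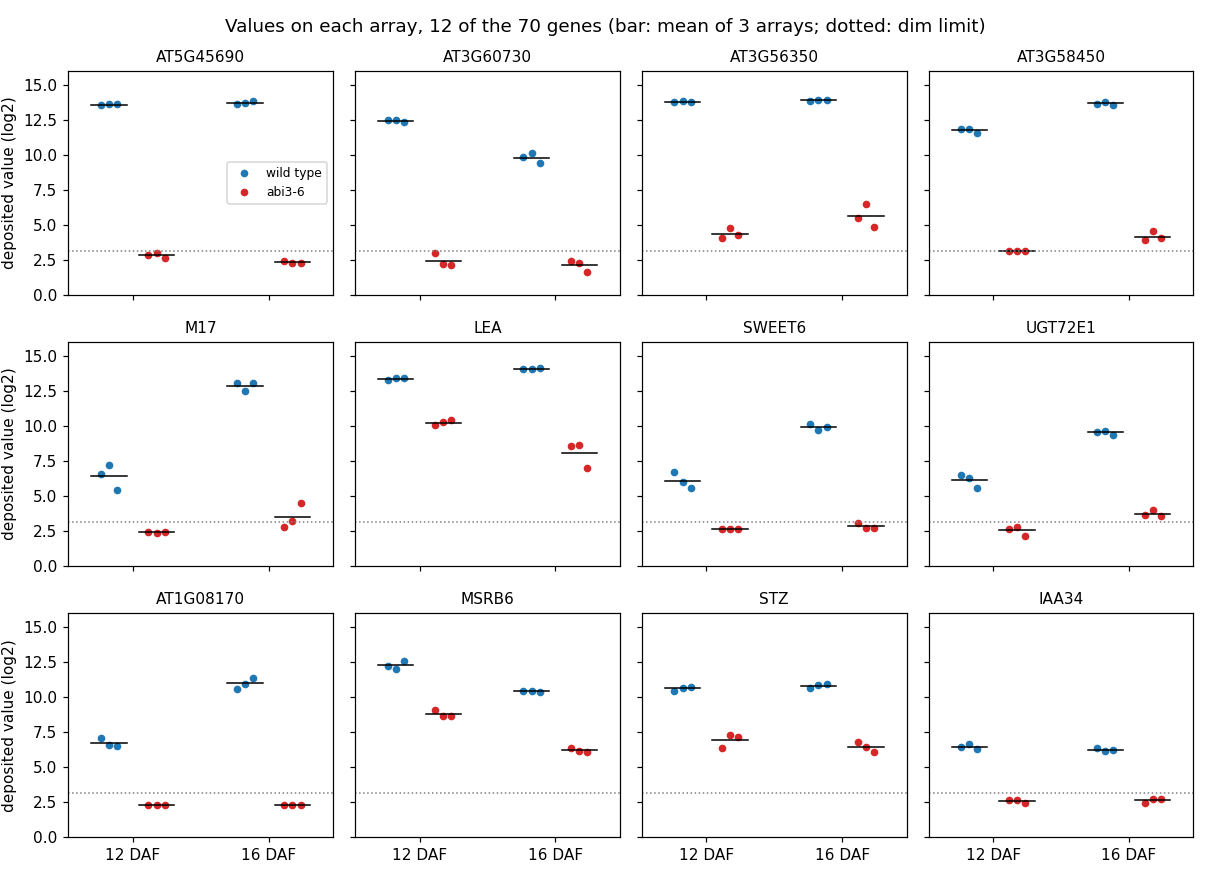
Deposited values (log2 units, vertical axis) of 12 of the 70 genes on each array at 12 and 16 DAF, wild type in blue and abi3-6 in red; bars are means of 3 arrays and the dotted line is the dim limit of 3.16. In every panel the mutant arrays lie below the wild-type arrays of the same age, under the limit throughout for AT5G45690 and at 10.05 to 10.40 for LEA at 12 DAF.

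The 8 members of the late embryogenesis abundant (LEA), dehydration and cold families included M17, LEA, AT2G42560, AT1G22600, AT5G44310, AT4G39130, AT4G25580 and AT2G38905. LEA proteins are hydrophilic proteins that accumulate as seeds acquire desiccation tolerance. The median difference of the 8 was -4.35 at 12 DAF and -7.67 at 16 DAF. M17, an LEA gene of the M17 type, read 6.59, 7.22 and 5.44 in wild type and 2.41, 2.39 and 2.42 in abi3-6 at 12 DAF, and 13.07, 12.49 and 13.07 against 2.82, 3.25 and 4.52 at 16 DAF. The wild type was modest and scattered at 12 DAF and bright at 16 DAF, while the mutant was dim on all arrays at 12 DAF and over the limit on 2 of 3 at 16 DAF. M17 was at least 9.58-fold lower at 12 DAF and 650.0-fold lower at 16 DAF.

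LEA (AT2G21490) is a dehydrin gene. It gave 13.28, 13.41 and 13.42 in wild type and 10.05, 10.27 and 10.40 in the mutant at 12 DAF, and 14.07, 14.04 and 14.12 against 8.58, 8.64 and 7.03 at 16 DAF. The genotypes did not overlap, but the mutant remained bright, with 1 array at 16 DAF lower than the other 2, and the difference went from -3.13 to -6.0. The dehydrin family member AT4G39130 was dim on all 6 mutant arrays, and it was at least 22.1-fold lower at 12 DAF and at least 78.9-fold lower at 16 DAF. AT1G22600 was likewise dim on all 6, with bounds of at least 17.5-fold and at least 69.3-fold.

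AT4G25580, related to a cold acclimation protein of spinach, was at least 51.1-fold lower at 12 DAF and 280.2-fold lower at 16 DAF, and AT2G42560 was 25.7-fold and 315.8-fold lower. The smallest difference of the group at 16 DAF was that of AT5G44310, -3.5 at 12 DAF and -3.92 at 16 DAF. AT2G38905, of a family of small low-temperature and salt responsive membrane proteins, had a difference of -3.42 at 12 DAF and -7.90 at 16 DAF.

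The 5 lipid and oil body family members were AT5G45690, AT4G18920, AT5G16460, AT3G44830 and AT1G28640. AT4G18920 is a second DUF1264 family gene, and it was 8.44-fold lower at 12 DAF and 52.7-fold lower at 16 DAF, far less than AT5G45690. AT5G16460 belongs to the seipin family, which acts in oil droplet formation at the endoplasmic reticulum, and its differences were -4.99 and -7.32. AT3G44830, of the lecithin:cholesterol acyltransferase family, had differences of -3.98 and -4.78, and AT1G28640, of the GDSL lipase family, was 15.5-fold lower at 12 DAF and at least 13.6-fold lower at 16 DAF. The other cell wall gene beside AT3G60730 was AT3G17130, of the family that holds inhibitors of invertases and pectin methylesterases. Its wild-type arrays gave 10.22, 10.02 and 10.41 at 12 DAF and 7.34, 7.01 and 7.0 at 16 DAF, and its mutant arrays 7.40, 7.10 and 6.98 at 12 DAF and then 3.18, 2.83 and 1.98 at 16 DAF. Each genotype was higher at 12 DAF than at 16 DAF, and the difference was -3.05 and -4.45.

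The 9 redox and dehydrogenase family members include AT3G56350, described above; at 16 DAF the difference of AT3G05260, -8.73, was larger than that of AT3G56350. MSRB6 encodes methionine sulfoxide reductase B6, of a family that repairs oxidised methionine. It read 12.21, 12.02 and 12.59 in wild type and 9.08, 8.65 and 8.67 in the mutant at 12 DAF, and 10.45, 10.44 and 10.39 against 6.40, 6.18 and 6.11 at 16 DAF. The arrays of each age were separated by genotype, and both genotypes were lower at 16 DAF. AT1G54870, AT3G05260, AT4G13180 and AT3G29260 are short-chain dehydrogenase family genes; the first 2 were 124.3-fold and 104.3-fold lower at 12 DAF and 173.9-fold and 423.7-fold lower at 16 DAF. AT4G13180 was 10.3-fold and 45.8-fold lower, and AT3G29260, dim on all 6 mutant arrays, at least 18.4-fold and at least 4.6-fold lower.

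The aldo-keto reductase family gene AT5G01670 had differences of -3.11 and -4.51. The long-chain fatty alcohol oxidase family gene AT1G03990 had differences of -3.85 and -5.22. AT1G17010 belongs to the 2-oxoglutarate-dependent oxygenases, and it measured 6.38, 5.36 and 5.29 in wild type and 2.28, 2.37 and 2.63 in abi3-6 at 12 DAF, and 10.48, 10.40 and 10.68 against 4.0, 4.26 and 4.09 at 16 DAF. At 12 DAF the mutant was dim and the wild type modest (at least 5.71-fold), whereas at 16 DAF the wild type was bright and the mutant low (84.4-fold).

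Of the 9 regulator, kinase and chromatin family members, STZ encodes a zinc finger protein known from salt tolerance. Its values were 10.47, 10.68 and 10.75 in wild type and 6.40, 7.29 and 7.17 in abi3-6 at 12 DAF, and 10.66, 10.89 and 10.97 against 6.78, 6.48 and 6.11 at 16 DAF. The genotypes did not overlap at either age, and all 6 mutant arrays were over the dim limit. IAA34, an auxin-inducible Aux/IAA gene of a family of auxin signalling repressors, read 6.46, 6.67 and 6.33 against 2.69, 2.65 and 2.43 at 12 DAF and 6.37, 6.14 and 6.20 against 2.45, 2.75 and 2.73 at 16 DAF. It was dim on all 6 mutant arrays, which makes it at least 10.02-fold lower at 12 DAF and at least 8.43-fold lower at 16 DAF.

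AT4G31060 and AT5G18450 are AP2/ERF transcription factor genes. AT4G31060 gave 9.16, 8.94 and 8.95 in wild type and 5.99, 5.92 and 5.78 in abi3-6 at 12 DAF, and 6.47, 6.34 and 5.86 against 3.01, 2.86 and 3.14 at 16 DAF. It was lower at 16 DAF in each genotype, and dim on all 3 mutant arrays there. AT5G18450 was 87.1-fold lower at 12 DAF and 214.0-fold lower at 16 DAF. AT1G08170, a gene related to histone H2B, read 7.10, 6.62 and 6.5 in wild type and 2.29, 2.32 and 2.29 in the mutant at 12 DAF, and 10.62, 10.98 and 11.39 against 2.33, 2.33 and 2.34 at 16 DAF. The 6 mutant values are nearly identical and dim, so the bound of at least 11.9-fold at 12 DAF and at least 228.3-fold at 16 DAF follows the wild-type level.

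AT4G18650, of the family of the dormancy gene DOG1, was 45.4-fold lower at 12 DAF and 300.5-fold lower at 16 DAF. The kinase family genes AT5G03640 and AT5G35960 had bounds or folds under 10, with AT5G03640 at least 6.29-fold and at least 5.46-fold lower, and AT5G35960 9.1-fold and at least 9.44-fold lower.

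The 6 members of transporter, glycosyltransferase and methyltransferase families included SWEET6, a sugar transporter gene. SWEET6 measured 6.72, 5.99 and 5.59 in wild type and 2.64, 2.64 and 2.64 in abi3-6 at 12 DAF, and 10.13, 9.71 and 9.94 against 3.07, 2.71 and 2.74 at 16 DAF. It was dim on all mutant arrays, and it was at least 7.66-fold lower at 12 DAF and at least 108.8-fold lower at 16 DAF. UGT72E1, a UDP-glucosyl transferase gene, read 6.5, 6.30 and 5.61 against 2.67, 2.83 and 2.17 at 12 DAF and 9.59, 9.68 and 9.39 against 3.66, 4.01 and 3.58 at 16 DAF. The mutant was dim at 12 DAF and over the limit at 16 DAF, and the wild type was modest at 12 DAF and bright at 16 DAF.

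The glycosyltransferase family genes AT2G16890 and AT5G65550 had differences of -3.85 and -3.04 at 12 DAF and -5.99 and -4.16 at 16 DAF. AT5G66430 and AT2G14060 are methyltransferase family genes dim on all 6 mutant arrays, with bounds of at least 32.0-fold and at least 16.0-fold at 12 DAF and at least 288.6-fold and at least 7.08-fold at 16 DAF. Of 3 defence and lectin family genes, AT2G15010 (thionin) and AT2G38900 (potato inhibitor I type protease inhibitor) had differences of -4.62 and -3.53 at 12 DAF and -5.84 and -7.66 at 16 DAF. The jacalin lectin family gene AT3G21380 was 112.5-fold lower at 12 DAF and 447.7-fold lower at 16 DAF.

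AT5G01300, of the phosphatidylethanolamine-binding family, differed by -3.36 and -3.78. AT3G25160, of the family of receptors that retain proteins in the endoplasmic reticulum, gave 8.90, 9.03 and 9.08 in wild type and 1.70, 1.68 and 2.31 in the mutant at 12 DAF, and 6.93, 6.25 and 6.45 against 2.16, 1.72 and 1.74 at 16 DAF. It was dim on all 6 mutant arrays and higher in wild type at 12 DAF than at 16 DAF, so its bound was at least 57.4-fold and then at least 10.4-fold.

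The 26 members without a role had differences from -9.01 to -3.10 at 12 DAF and from -9.54 to -3.09 at 16 DAF, with medians of -4.94 and -5.93. Besides AT5G07330 and AT2G19320, those at -6 or lower at both ages were AT1G16770, AT1G27990, AT3G15280, AT5G43770 and AT3G31955. Their differences were -7.39, -6.48, -7.15, -6.69 and -6.54 at 12 DAF, and -7.12, -8.48, -9.54, -8.16 and -7.03 at 16 DAF. AT3G31955 is 1 of the annotated pseudogenes and its probe set may also detect related sequences, so which locus it reads is uncertain. Those at -6 or lower at 16 DAF alone were AT1G02700, AT1G23070, AT1G30860, AT4G27530 and AT5G24130. The remaining 14 were AT1G03270, AT1G17430, AT1G31750, AT2G38465, AT3G14880, AT3G19920, AT3G54510, AT4G39675, AT5G02580, AT5G04000, AT5G04010, AT5G42290, AT5G50315 and AT5G64780.

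**Figure D3:**
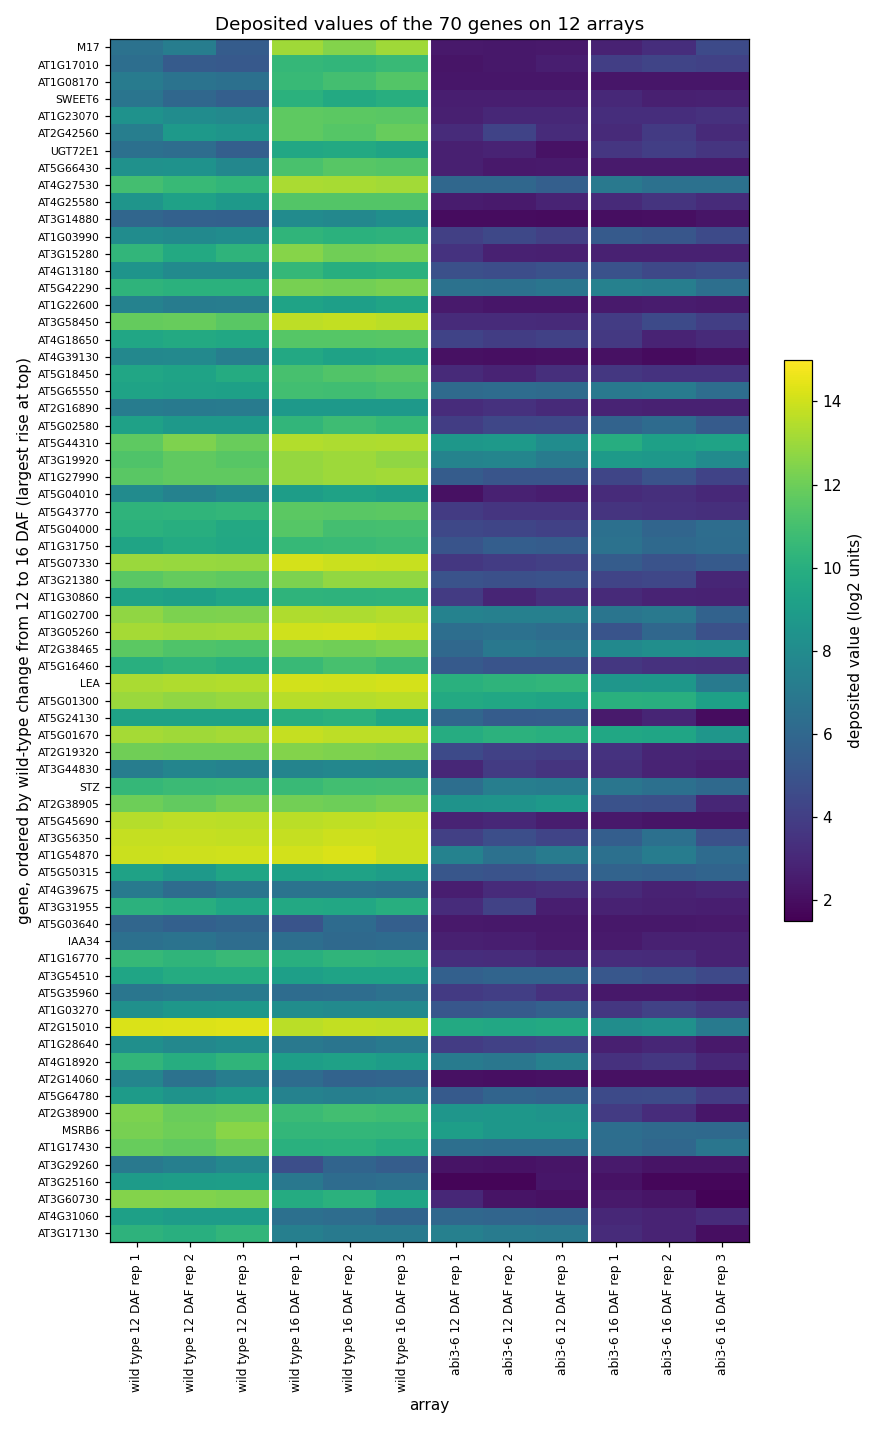
Deposited values (colour scale, log2 units) of the 70 genes, 1 row a gene, on the 12 arrays, ordered from the largest wild-type rise between 12 and 16 DAF at the top, M17, to the largest fall at the bottom, AT3G17130. Within each age the wild-type columns are brighter than the abi3-6 columns in every row, with some rows such as LEA and AT2G15010 still bright in the mutant.

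The change between 12 and 16 DAF within a genotype was not used by the rule and was tested with limma over all 14873 probe sets, with Benjamini-Hochberg adjustment. The rule did use the same group means of both genotypes. The wild-type means of a member had to stay over 5 at both ages. Background shares below are of probe sets not chosen on genotype differences. The array names in the labels follow 1 form at 12 DAF and another at 16 DAF, so age and any difference in array handling between the ages cannot be told apart. In wild type, 40 of the 70 members (57.1%) were higher at 16 DAF and 15 (21.4%) were lower, and 15 did not pass. Among all tested probe sets 32.0% were higher and 30.4% lower, and among those with wild-type means over 5, 37.4% and 27.9%. The median change of the members was 0.86 log2 units, against 0.07 over all tested probe sets. The array medians of the 2 wild-type groups differed, and centring each array on its median adds 0.23 to each wild-type change.

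The largest wild-type rises were those of M17 (6.45 ± 0.43 log2 units, SE, limma adjusted p = 1.79e-08), AT1G17010 (4.84 ± 0.24, adjusted p = 9.64e-10), AT1G08170 (4.26 ± 0.19, adjusted p = 4.32e-10) and SWEET6 (3.83 ± 0.23, adjusted p = 7.20e-09). For each of the 40 members that rose, all 3 arrays at 16 DAF exceeded all 3 at 12 DAF, as did 34.8% of all tested probe sets. Of the 40 that rose, 15 rose at least 4-fold and 9 less than 2-fold, and the median rise was 1.74. The next in size were AT1G23070 (3.51), AT2G42560 (3.46), UGT72E1 (3.42) and AT5G66430 (3.17).

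The largest wild-type falls were those of AT3G17130 (-3.10 ± 0.25, SE, limma adjusted p = 1.15e-07), AT4G31060 (-2.79 ± 0.16, adjusted p = 5.44e-09), AT3G60730 (-2.65 ± 0.26, adjusted p = 8.78e-07) and AT3G25160 (-2.46 ± 0.21, adjusted p = 1.97e-07). Both cell wall family genes were thus among the 4 that fell by at least 4-fold. The ages did not overlap for any of the 15 that fell, against 31.5% of all tested probe sets with every 16 DAF array below every 12 DAF array. The other falls included AT3G29260 (-2.0), AT1G17430 (-1.87), MSRB6 (-1.85) and AT2G38900 (-1.31).

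The family counts that follow are small and are to be read against the shares among tested probe sets with wild-type means over 5, 37.4% higher and 27.9% lower. Of the 8 LEA, dehydration and cold members 6 rose in wild type and 2, LEA and AT2G38905, did not pass (0.71 and 0.13, adjusted p = 0.066 and 0.776 in limma). With each array centred on its median LEA passed, at 0.93. Of the 6 transporter, glycosyltransferase and methyltransferase members 5 rose and AT2G14060 fell. The lipid and oil body members did not move together: AT5G16460 rose (0.71), AT4G18920 and AT1G28640 fell (-1.12 and -1.12), and AT5G45690 (0.13) and AT3G44830 (0.25) did not pass. AT5G45690 passed with centred arrays, at 0.35. Of the 9 redox and dehydrogenase members 5 rose, MSRB6 and AT3G29260 fell, and AT1G54870 and AT3G56350, both near 14 in wild type at each age, did not pass. Among the 9 regulator, kinase and chromatin members 4 rose, AT4G31060 and AT5G35960 fell, and STZ, IAA34 and AT5G03640 did not pass. Of the 26 members without a role 17 rose, 3 fell and 6 did not pass.

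In abi3-6 the same change could be read for 57 members, since 13 were dim on all 6 mutant arrays. Of the 57, 20 (35.1%) were higher at 16 DAF, 24 (42.1%) were lower and 13 did not pass. Among all tested probe sets 27.1% were higher and 23.5% lower in the mutant, and among those with bright wild-type means and a mutant signal, 26.4% and 24.5%. The ages did not overlap for any of the 20 that rose or for 23 of the 24 that fell, the exception being AT3G44830, while 35.7% and 27.8% of all tested probe sets were separated upward and downward. The median change of the 57 in abi3-6 was -0.24, against 0.07 over tested probe sets with a mutant signal.

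Of the 40 members that rose in wild type, 18 also rose in abi3-6, 9 fell, 7 did not pass and 6 were dim throughout. For the 9, every array at 16 DAF was above every array at 12 DAF in wild type and below in abi3-6. Array separation of this kind alone was found for 2.53% of all tested probe sets. It was found for 3.69% of those with bright wild-type means and a mutant signal. LEA, AT2G19320 and AT5G43770 were separated in the same way without passing in both genotypes, so the 9 and these shares use unlike criteria. The rule's contrasts bear on this pattern, and nothing is read from the count. Of the 15 that fell in wild type, 10 also fell in abi3-6, 1 (AT1G17430, -0.01) did not pass and 4 were dim throughout. Of the 15 that did not pass in wild type, AT5G50315 and AT3G56350 rose in the mutant, 5 fell, 5 did not pass and 3 were dim throughout. Over the 57 members the Pearson correlation of the changes in wild type and abi3-6 was 0.63 (Spearman 0.64), and over all tested probe sets the Pearson correlation was 0.61; both are descriptions across genes, which share arrays and are not independent.

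The largest mutant falls were those of AT2G38900 (-5.45 ± 0.28 log2 units, SE, limma adjusted p = 3.98e-09), AT3G17130 (-4.50 ± 0.25, adjusted p = 8.21e-09), AT2G38905 (-4.34 ± 0.38, adjusted p = 5.53e-07) and AT4G18920 (-3.76 ± 0.20, adjusted p = 5.12e-09). AT2G38900 gave 8.57, 8.66 and 8.49 in abi3-6 at 12 DAF and 3.86, 3.19 and 2.33 at 16 DAF, and AT2G38905 gave 8.45, 8.48 and 8.75 at 12 DAF and 4.90, 4.81 and 2.94 at 16 DAF. Both went from bright to low in the mutant without overlap, and replicate 3 at 16 DAF was the lowest for each. In wild type AT2G38905 read 12.03, 11.77 and 12.14 at 12 DAF and 12.11, 12.02 and 12.21 at 16 DAF, and the ages overlapped. AT5G24130 was dim on all 3 mutant arrays at 16 DAF, at least 5.51-fold lower than at 12 DAF (limma adjusted p = 7.15e-08).

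Mutant rises were smaller as measured. The 20 measured changes ranged from 0.44 to 1.94 log2 units, and none of these measured values reached 4-fold. Of these, AT5G04010, AT3G58450, AT4G25580, UGT72E1, AT1G23070, AT1G17010 and M17 were dim on all 3 mutant arrays at 12 DAF. Their rises are known only as lower bounds and could be larger than measured. AT5G04000 rose most, from 4.43, 4.31 and 4.11 to 6.49, 5.89 and 6.30 (1.94 ± 0.19, SE, limma adjusted p = 1.98e-06). AT1G17010 was dim at 12 DAF and not at 16 DAF, a rise of at least 1.94-fold in the mutant (limma adjusted p = 4.62e-05). M17 rose in the mutant by 1.13 ± 0.43 (SE, limma adjusted p = 0.0414), or at least 1.4-fold against the dim limit, and this call was lost in 8 of 14 alternatives. Replicate 3 at 16 DAF was the highest mutant array, at 4.52, and without it the change was 0.63.

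**Figure D4:**
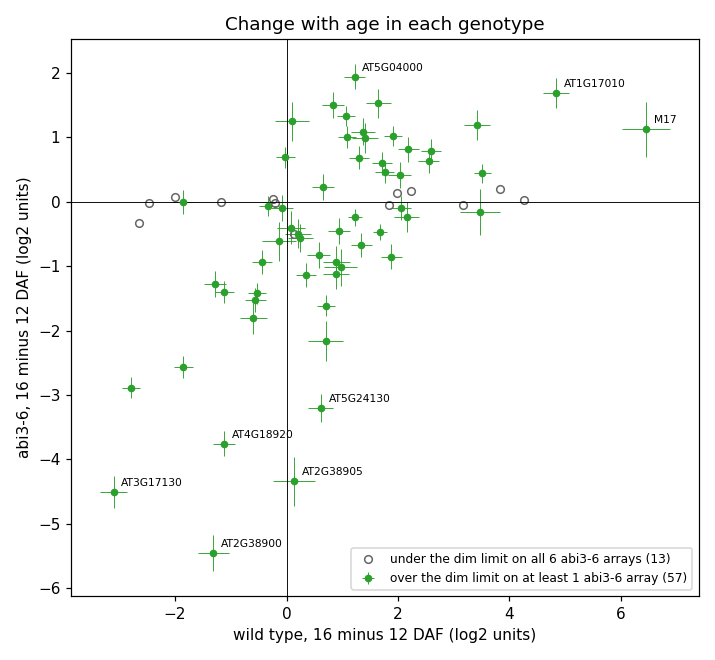
Change from 12 to 16 DAF (log2 units) in wild type (horizontal) against abi3-6 (vertical) for the 70 genes; bars are limma standard errors and open circles are the 13 genes dim on all mutant arrays. M17 lies furthest right at 6.45, AT3G17130 furthest left at -3.10, and AT2G38900 lowest, at -5.45 in the mutant.

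Just inside the threshold at 12 DAF lay AT5G65550 (-3.04), AT3G17130 (-3.05) and AT4G18920 (-3.08), and just outside it, among genes past it at 16 DAF, AT5G46230 (-2.99), AT3G54940 (-2.92) and AT5G60760 (-2.86), whose 16 DAF differences were -4.64, -6.47 and -5.88. Among genes past the threshold at 12 DAF, those nearest to it at 16 DAF were, inside, AT3G29260 (-3.06), AT5G64780 (-3.09) and AT4G31060 (-3.22), and, outside, AT5G66780 (-2.38), MSRB5 (-2.22) and AT5G02230 (-2.03). Past -3 at 16 DAF alone were 96 single-gene probe sets with wild-type means over 5, and past it at 12 DAF alone 5. The 96 had a median difference of -1.82 at 12 DAF and -3.76 at 16 DAF; in wild type 60 of them rose with age and 14 fell, against 37.4% and 27.9% of all tested probe sets with wild-type means over 5. Their choice required a larger fall at 16 DAF than at 12 DAF. It thus favours wild-type rises over mutant rises, and nothing is read from these counts. Of the 9 genes left out by name, 8 rose with age in wild type and 1, AT3G15670 at 0.55, did not pass, with changes up to 5.85 and the same share of 37.4% as background.

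Gene order in the TAIR10.1 gene table put 2 pairs of members side by side, AT2G38900 with AT2G38905 and AT5G04000 with AT5G04010. The first pair is among the 3 largest mutant falls with age, and the second pair rose in both genotypes. Wild-type arrays of AT5G04010 read 8.03, 7.50 and 7.90 at 12 DAF and 9.01, 9.27 and 9.06 at 16 DAF, and abi3-6 arrays read 2.13, 2.75 and 2.58 at 12 DAF and 3.16, 3.31 and 3.05 at 16 DAF. The genotypes did not overlap at either age. Of 136 flanking loci that are no member, 53 had a tested probe set; 13 were lower in abi3-6 at 12 DAF (24.5%) and 18 at 16 DAF (34.0%), and 14 (26.4%) and 20 (37.7%) were higher. These shares were near the background over all tested probe sets, 23.7% and 34.6% lower and 27.1% and 35.6% higher. Those with the largest falls included MSRB5, beside MSRB6, at -4.62 and -2.22, and AT2G19310, beside AT2G19320, at -2.43 and -4.54 (limma adjusted p = 7.39e-06 and 4.81e-09). Whether the probe sets of the paralogs MSRB5 and MSRB6 share signal was not tested.

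Other genes of seed maturation were read from lists of known regulators and products, with the members and the 9 left-out genes not counted. Few of the listed loci had a probe set of their own in the annotation used: 3 of 21 regulators, 10 of 26 storage and oil body products, 7 of 26 desiccation and dormancy products (of which 3 belong to the rule and 1 was dim), and none of 33 abscisic acid genes. Of the 3 regulators, AGL67, a MADS-box gene, had a difference of -2.11 ± 0.16 (SE) at 12 DAF and -2.14 ± 0.16 at 16 DAF (limma adjusted p = 1.45e-07 and 4.85e-08). The bZIP gene EEL fell at both ages (-1.29 ± 0.23 and -1.60 ± 0.23, SE), and BZIP53 passed at 16 DAF (-0.85 ± 0.18, SE) and not at 12 DAF (-0.24 ± 0.18, SE). All 3 kept mutant means over 8.

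Of the 10 storage and oil body genes, 8 were lower at 12 DAF and 9 at 16 DAF. The largest falls at 16 DAF were those of the oleosins AT3G18570 (-7.49 ± 0.41, SE) and OLEO3 (-5.71 ± 0.32), which coat oil bodies, of the cruciferin-like AT1G03890 (-5.08 ± 0.44) and of the oleosin AT3G01570 (-3.86 ± 0.28). At 12 DAF the same 4 had differences of -2.30, -2.29, -1.99 and -0.98, all past the test and none past the threshold of -3 that defined the members. The vacuolar processing enzyme DELTA-VPE was lower at 12 DAF (-1.34 ± 0.19, SE) and higher at 16 DAF (2.39 ± 0.19). Of the 3 desiccation genes tested, M10, which lies near M17, was lower at both ages (-1.27 ± 0.27 and -1.73 ± 0.27, SE), AT3G17520 at 16 DAF (-1.81 ± 0.23), and AT2G46140 did not pass at either age (0.24 and 0.27). Over these 16 listed genes 11 were lower at 12 DAF (limma, background 23.7%) and 14 at 16 DAF (background 34.6%).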

How the data were processed

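Seed RNA of 12 samples was hybridised to 1-colour arrays with 22810 probe sets, of which 64 were controls. Values were used as the authors deposited them, and the scale, which the labels do not name, was taken to be log2 from values that never reached 0 and maxima under 16; any centring of the arrays is not given in the sources used here. Per the submitters' processing notes GCOS 1.3 and GCRMA 2.0.0 were used, with no role or order given. GCRMA estimates background from probe sequence, so differences of dim probe sets are less certain.

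Gene names are those of GEO's platform annotation, some of which may be outdated, and 13436 of the 13513 single-gene probe sets matched the TAIR10.1 gene table, used for names and gene order only. Members were found from group means. No member locus had a further probe set of its own. Probe sets were tested where 3 of 12 arrays were at or over 3.16, the 40th percentile of the whole table, which kept 14873 and left out 7873. Using R 4.3.3 and its package limma 3.58.1, 1 mean per group was estimated from the 12 arrays by lmFit, with eBayes adding 5.41 prior to 8 residual degrees of freedom. Calls were two-sided at 0.05 after Benjamini-Hochberg adjustment. The fit was tested on simulated data. Python 3.11.15 made the tables (pandas 2.3.3, with numpy 2.4.6) and the figures (matplotlib 3.10.9).

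The members and all gene lists were chosen with earlier results of these data known, and the role groups were made with values in view. Values of every array are printed for members with a symbol and described product, for the 6 with the largest mean fall and for up to 4 with the largest wild-type age change in each direction, and for a few others chosen after their values were seen (AT2G38900, AT2G38905, AT5G04000, AT5G04010). From each list up to 4 genes that passed are named per contrast. A bound against a dim group takes the higher of the dim limit and the array's own value. Alternatives changed the scaling, the filter, the variance model and the arrays used, one at a time. No sequences are printed, since none were read here.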

Additional observations from a re-analysis of the deposited data

Results flagged for a closer look

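Of the 70 genes, 9 rose in wild type and fell in abi3-6 between 12 and 16 DAF, with limma passed in both genotypes. For these 9, all 3 arrays at 16 DAF were above all 3 at 12 DAF in wild type, and all 3 were below in abi3-6. Array separation of this kind, without regard to limma, was shown by 2.53% of all tested probe sets. It was shown by 3.69% of those with wild-type means over 5 and a mutant signal. LEA, AT2G19320 and AT5G43770 were also separated in this way but did not pass in both genotypes. The count of 9 and the 2 shares thus rest on unlike criteria. The difference between the genotypes was not tested, because the rule that chose the genes used the contrasts it is made of. Changes are 16 minus 12 DAF in log2 units, wild type first and abi3-6 second. The dormancy-gene family member AT4G18650 changed by 1.88 and -0.85. The glycosyltransferase family gene AT2G16890 changed by 1.67 and -0.47; it was dim on all 3 mutant arrays at 16 DAF, so that its fall is known only as at least 1.08-fold. AT1G27990, given no role, changed by 1.34 and -0.67, and AT1G02700, also given none, by 0.90 and -0.93. The jacalin lectin family gene AT3G21380 changed by 0.97 and -1.02, with abi3-6 replicate 3 at 16 DAF (2.93) lower than the other 2 (4.27 and 4.36). The short-chain dehydrogenase family gene AT3G05260 changed by 0.89 and -1.13. The seipin family gene AT5G16460 changed by 0.71 and -1.61. AT5G24130, given no role, changed by 0.62 and -3.2, the largest mutant fall of the 9, and was dim on all 3 mutant arrays at 16 DAF. The aldo-keto reductase family gene AT5G01670 changed by 0.58 and -0.83. The wild-type rises of AT5G01670 and AT5G24130 are the least certain of the 9. That of AT5G01670 failed the test in 4 of 14 alternatives, at 0.43 with quantile normalization. That of AT5G24130 failed in 6 of 14, among them every removal of 1 wild-type array except 16 DAF replicate 3. The AT5G24130 rise was 0.50 without wild type 16 DAF replicate 2. Of the mutant falls, 3 shrank by over 1.5 times without abi3-6 16 DAF replicate 3 and still passed: AT1G02700 to -0.57, AT3G21380 to -0.56 and AT5G01670 to -0.54.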

How the results depend on the processing

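The rule gave 70 genes as applied, and 52 at a threshold of -3.5, 84 at -2.5, 63 with mutant arrays raised to the dim limit, 73 with centred arrays and 68 to 71 without each array in turn. All 132 recomputed counts were within 1.5 times the reported one. Wild-type rises numbered 38 to 43 and falls 12 to 16; the split was 43 and 12 with centred arrays. Mutant rises numbered 16 to 22 and falls 23 to 25. Of the calls reported, 38 of 40 wild-type rises, 12 of 15 wild-type falls, 15 of 20 mutant rises and 23 of 24 mutant falls held in every alternative run. For a part of the 70 members only, 672 changes of single genes were recomputed, of which 18 lost the call, 9 gained it and 1 changed sign. That was the wild-type change of AT5G45690, which did not pass and was -0.009 with quantile normalization. Outside that part, more changes that did not pass also changed sign. These included AT1G17430 in abi3-6 and AT5G50315 in wild type, each in 4 of 14 alternatives. Over all 70 members, the wild-type fall of AT2G15010 failed in 8 of 14 alternatives, the mutant fall of AT3G44830 in 9 and the mutant rise of M17 in 8. The cause was not tested. Whether replicate numbers pair the samples was left unsettled, and the main fit did not use them. Deviations of same-numbered arrays from their group means had correlations from -0.02 to 0.16 between groups, and differently numbered arrays from -0.13 to 0.08. Between genotypes at 12 DAF the same-numbered values were 0.075, 0.144 and 0.078. With the replicate number as a block, wild type gave 40 rises and 15 falls, and abi3-6 gave 19 and 23. The listed maturation genes then gave 11 lower at 12 DAF and 14 lower at 16 DAF. The planned comparison of promoter motifs was not run. Signals under 3.16 limit every mutant value given as a bound.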
